A study of Mus musculus with 24 samples.

Results

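The effect of transformation with Ras and Myc on translational efficiency was measured in wild-type (WT) mouse embryonic fibroblasts, gene by gene. Translational efficiency (TE) was the log2 polysomal value minus the log2 total RNA value of the same culture. The genes were chosen by a mean above 4.0 on the log2 scale over the 6 WT polysomal arrays, which 7177 of 19661 genes with a value of their own met. All 7177 also passed the filter on low values, which 14830 genes passed. The 6 WT cultures were transformed fibroblasts of embryos 1, 2 and 3 and untransformed fibroblasts of the same embryos, all carrying both Eif4e alleles, so each embryo gave 1 transformed and 1 untransformed culture. Cells came from E13.5 embryos, were of early passage, and were grown in DMEM with 10% serum to exponential phase. The labels give cycloheximide at 100 µg/ml for the polysomal samples and name none for the total RNA samples. How Ras and Myc were delivered, and whether a transformed culture was 1 clone, was not given in the sources used here. Matching cultures of 3 Eif4e+/- embryos (Het), which carry 1 intact Eif4e allele, give values in other embryos.

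An mRNA that initiates often carries many ribosomes and sediments with heavy polysomes, so the share of an mRNA found there is a common measure of how well it is translated. Initiation at the cap runs through eIF4F, made of the cap-binding protein eIF4E, the scaffold eIF4G and the helicase eIF4A. Ras signalling acts on it through MNK and mTOR kinases, and Myc raises the transcription of ribosomal and initiation factor genes. Some mRNAs have controls of their own, such as the terminal oligopyrimidine (TOP) start of ribosomal protein mRNAs, the iron-responsive element of ferritin mRNAs, the upstream open reading frames of stress genes and the stem-loop that replaces the poly(A) tail of histone mRNAs.

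Array means were 7.47 to 7.50 in WT total RNA and 3.78 to 3.79 in WT polysomal RNA, so TE values are below 0 for most genes and have no absolute scale. The spread of values over probe sets was 1.73 to 1.78 (SD) on the total arrays and 1.15 to 1.44 on the polysomal arrays. Fibroblast markers were measured in both states, and 11 of 15 were among the 7177 genes. Their summed total RNA was 13.65 to 14.31 (log2) in transformed and 14.57 to 14.74 in untransformed WT cultures. Of markers of other cell types, 0 of 12 endothelial, 1 of 13 leukocyte, 2 of 9 epithelial, 2 of 11 neural and 4 of 10 muscle genes were above the polysomal minimum. The minimum itself separated close values: Natd1 lay just inside at 4.00014, with a TE change of -0.25, and Mb21d2 just outside at 3.99977, with a TE change of -0.25.

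Few genes passed the test for a TE change, which set the mean change against the spread of paired changes within both genotypes. A gene without a call may still have changed. With limma, embryo as a block and a Benjamini-Hochberg adjusted p under 0.05 over all genes tested (a call), TE was higher in transformed cells for 11 genes (0.153% of 7177) and lower for 5 (0.0697%). Over all 14830 genes tested, 75 were called higher (0.506%) and 29 lower (0.196%), so 88 of the 104 calls lay among genes at or under the polysomal minimum. For each of the 16 called genes, all 3 embryos moved the same way and the transformed and untransformed values did not overlap, which held for 923 of the 7177 genes (12.9%) by the second criterion. The number of calls rested on single embryos: it was 1 higher and 1 lower without embryo 1, again 1 and 1 without embryo 2, and 536 and 32 without embryo 3. Fitted on the WT cultures alone, with 3 pairs, no gene was called by limma, and 367 were higher and 90 lower at an unadjusted p under 0.05. In the main fit 615 genes (8.57%) were higher and 132 (1.84%) lower at that unadjusted level.

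The median TE change over the 7177 genes, transformed minus untransformed, was 0.13 on the log2 scale, and 0.03 over all genes tested. It differed between embryos, at 0.48 in embryo 1, 0.17 in embryo 2 and -0.20 in embryo 3. The spread of the polysomal arrays moved with it: the SD was 1.39 transformed and 1.15 untransformed in embryo 1, 1.42 and 1.31 in embryo 2, and 1.25 and 1.44 in embryo 3. Its part in the TE changes was not tested as a cause. With all arrays scaled to one common SD, the median change was 0.07 and 4 of the 16 called genes kept their call, namely Acta2, Thbs1, Odc1 and Noa1. That fit called 7 genes higher and 5 lower, against 11 and 5 before scaling. Of the genes that missed the threshold, some had TE changes of like or larger size in it, with 1.91 for Fth1, 2.09 for Kif1c, 1.47 for H2bc9 and -3.11 for Ptgs2. Others had smaller ones, with 0.75 for Tll1, 0.69 for Lrrc17 and 0.61 for Pdgfrb. Acta2 had -3.22 and Thbs1 -3.78. Across genes, 5% had a TE change below -0.40 and 5% one above 0.74, and the median standard error of a change was 0.26.

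**Figure D1:**
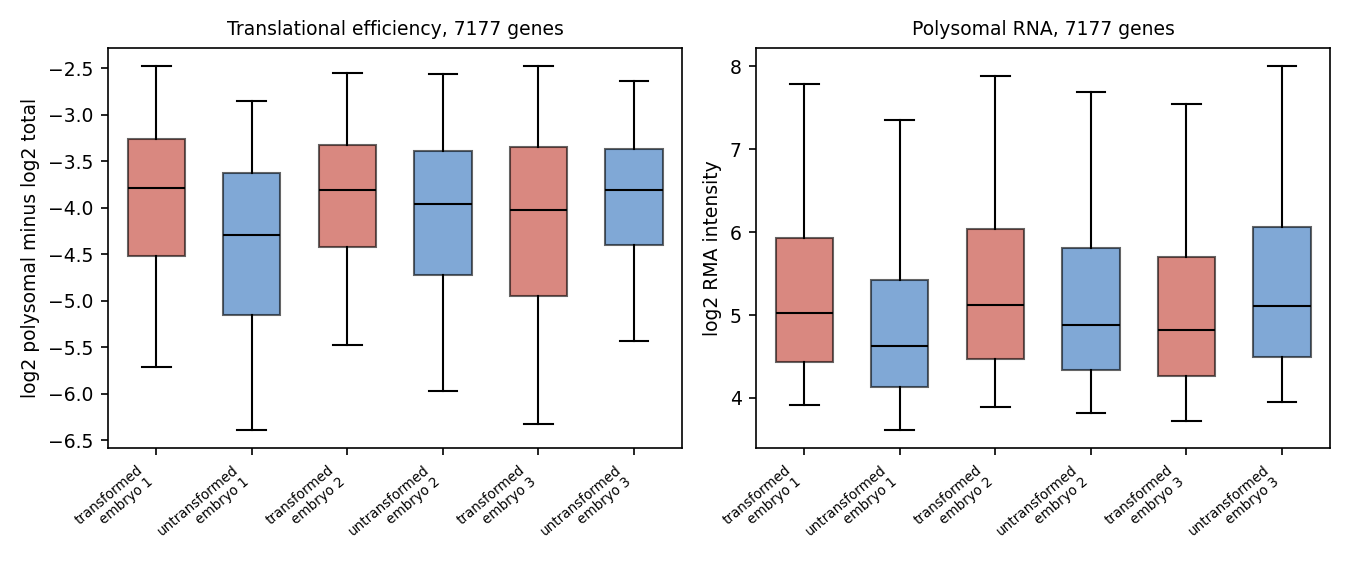
Translational efficiency (left, log2 polysomal minus log2 total) and polysomal RNA (right, log2 RMA intensity) of the 7177 genes in each WT culture, transformed in red and untransformed in blue. Boxes give the median and quartiles and whiskers the 5th and 95th percentiles over genes. The transformed culture has the higher median TE in embryos 1 and 2 and the lower one in embryo 3.

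Most genes called in polysomal RNA were also called in total RNA. Total RNA was called higher for 596 of the 7177 genes (8.3%) and lower for 784 (10.9%), and polysomal RNA higher for 51 (0.711%) and lower for 119 (1.66%). Of the 170 genes called in polysomal RNA, 142 were called the same way in total RNA, 28 were not called there, and 0 were called the opposite way. Across the 7177 genes the total and polysomal changes correlated at r = 0.81 (Spearman 0.70), a description over genes whose 2 changes come from the same 6 cultures. The SD of the changes over genes was 0.51 in total RNA, 0.62 in polysomal RNA and 0.37 in TE.

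The 16 called genes fell into 2 kinds. For 8 genes both states had a polysomal mean above 4.0. All 8 of these were also called in polysomal RNA, and 2 were called in total RNA. For the other 8 genes 1 state lay at or under 4.0, all 8 were called in total RNA, and 2 were called in polysomal RNA. Over the 7177 genes, 6360 had both states above 4.0, 376 had the transformed mean at or under it and 441 the untransformed mean.

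Fth1 encodes the heavy chain of ferritin, the iron storage protein, and its mRNA carries an iron-responsive element in the leader. Its polysomal RNA was 7.04, 7.50 and 8.56 (log2, embryos 1 to 3) in transformed cells, against 5.45, 6.05 and 6.26 in untransformed cells. Total RNA was 12.68, 12.93 and 12.98 in transformed cells, against 12.79, 12.83 and 12.71 in untransformed cells. Every transformed polysomal value was above every untransformed one, while the total values of the states overlapped. These total values stood near the top of the scale, where the highest value on the WT total arrays was 13.30 to 13.38. The part of the upper end of the scale in the TE change was not tested. TE of Fth1 (chromosome 19) rose by 1.70 ± 0.20 (log2, SE, 3 pairs, limma adjusted p = 0.014), with a total RNA change of 0.08 (adjusted p = 0.62).

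Odc1 encodes ornithine decarboxylase, which makes putrescine in the first step of polyamine synthesis, and is a known Myc target with a long structured leader. Its polysomal RNA was 7.83, 9.14 and 7.54 in transformed cells, against 6.04, 6.41 and 6.32 in untransformed cells. TE was -4.24, -3.62 and -4.83 in transformed cells, against -6.20, -5.43 and -5.72 in untransformed cells. The groups did not overlap in either measure, and embryo 2 was the highest in both once transformed. The TE of Odc1 (chromosome 12) rose by 1.56 ± 0.24 (limma adjusted p = 0.0292), with a total RNA change of 0.35 (adjusted p = 0.23).

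H2bc9 (chromosome 13) encodes a histone H2B, a core protein of nucleosomes. Its TE was -0.49, -0.59 and -0.33 in transformed cells, against -2.11, -1.96 and -1.84 in untransformed cells. Total RNA was 9.28, 9.40 and 9.29 in transformed cells, against 9.69, 9.40 and 9.51 in untransformed cells. The replicates of each state lay close together in TE and far from the other state. Its TE rose by 1.50 ± 0.22 (limma adjusted p = 0.0258) and its polysomal RNA by 1.29 (adjusted p = 0.0358), with a total RNA change of -0.21 (adjusted p = 0.17). Histone genes have near-identical copies, so a histone probe set may carry signal of other copies.

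Kif1c (chromosome 11) encodes a kinesin motor that moves cargo along microtubules. Its polysomal RNA was 5.67, 6.29 and 5.77 in transformed cells, against 3.21, 5.07 and 3.95 in untransformed cells, 2 of which lay under 4.0. The groups did not overlap, and the untransformed values spread more widely. Its TE rose by 1.80 ± 0.30 (limma adjusted p = 0.0359), and the adjusted p was 0.0725 with the mean of its probe sets in place of the brightest. Noa1 (chromosome 5) encodes a GTPase needed for mitochondrial translation. Its polysomal RNA was 6.44, 7.22 and 5.19 in transformed cells, against 3.97, 4.08 and 4.34 in untransformed cells. The untransformed values lay close to 4.0, so the size of its TE change is uncertain. Its TE rose by 1.50 ± 0.25 (adjusted p = 0.0388), with a total RNA change of 0.66 (adjusted p = 0.07).

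The 3 genes with lower TE and both states above the minimum were Acta2, Thbs1 and Ptgs2, all known as genes of activated fibroblasts. Acta2 (chromosome 19) encodes smooth muscle actin, the marker of myofibroblasts. Its polysomal RNA was 5.90, 5.81 and 7.30 in transformed cells, against 11.45, 11.07 and 11.86 in untransformed cells, and its total RNA was 9.22, 9.46 and 10.77 in transformed cells, against 13.29, 13.20 and 13.33 in untransformed cells. Both fractions were lower in every transformed culture, and polysomal RNA by more than total RNA. Polysomal RNA fell by 5.12, total RNA fell by 3.46 and TE fell by 1.66 ± 0.19 (limma adjusted p = 0.0129 for TE).

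Thbs1 (chromosome 2) encodes thrombospondin 1, a secreted matrix glycoprotein that activates TGF-beta. Its TE was -6.08, -6.00 and -6.73 in transformed cells, against -3.35, -3.43 and -4.76 in untransformed cells. The untransformed culture of embryo 3 was the nearest to the transformed ones, and the groups did not overlap. TE fell by 2.43 ± 0.29 (limma adjusted p = 0.014), the largest change among the 16 called genes, and total RNA fell by 2.23 (adjusted p = 0.0047). Ptgs2 (chromosome 1) encodes the inducible cyclooxygenase of prostaglandin synthesis. Its polysomal RNA was 3.69, 5.87 and 6.34 in transformed cells, against 9.05, 8.43 and 9.26 in untransformed cells, and its TE fell by 2.13 ± 0.27 (adjusted p = 0.0185). Its total RNA change was -1.48 (adjusted p = 0.064).

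All 3 of these genes stood near the top of the total RNA scale in untransformed cells, at 12.86 to 13.33, where the highest value of any probe set on the 6 WT total arrays was 13.30 to 13.38. Among the 37 genes with the brightest untransformed total RNA, which include these 3 and Fth1, the median TE change was -0.15. Of the 37, 15 were lower in all 3 embryos and 7 higher in all 3. The part of the upper end of the array scale in these TE changes was not tested.

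**Figure D2:**
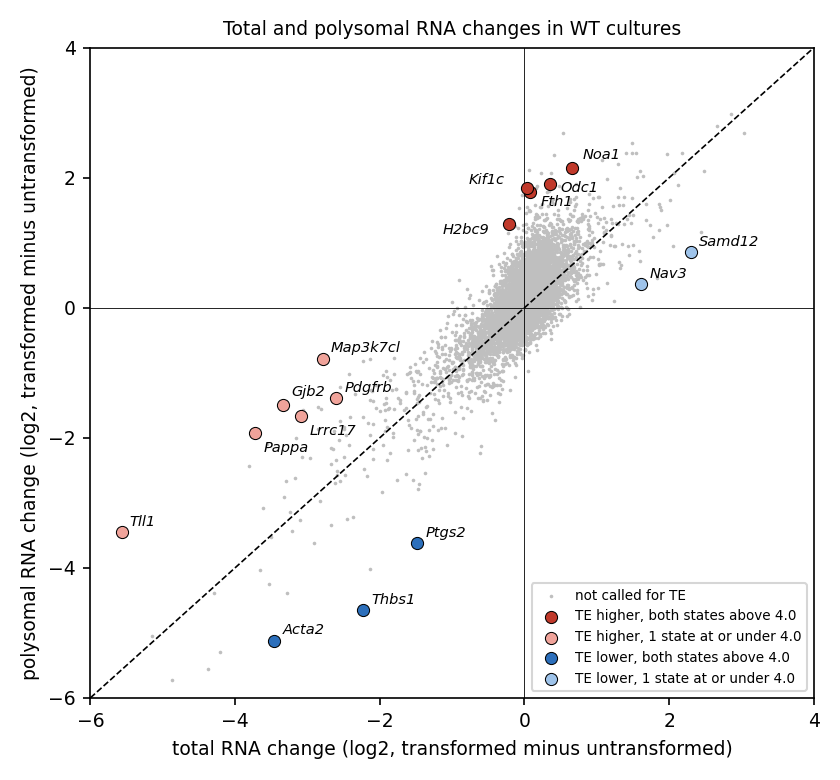
Polysomal RNA change against total RNA change (both log2, transformed minus untransformed, WT) for the 7177 genes, with the 16 genes called for TE in colour and the dashed line where both changes are equal. Fth1, Odc1, Kif1c, H2bc9 and Noa1 stand above the line near a total change of 0, Acta2, Thbs1 and Ptgs2 far below it, and the 8 genes with 1 state at or under 4.0 (pale) lie away from 0 on the total axis.

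The 6 called genes with higher TE and a low polysomal level in transformed cells all had lower total RNA there. They met the polysomal minimum through their untransformed values, so the size of their TE change rests on a low transformed value and is uncertain. Tll1 encodes a tolloid-like protease that processes procollagen, and its total RNA fell by 5.57 while its polysomal RNA was 2.76, 2.71 and 2.74 in transformed cells, against 6.25, 6.71 and 5.62 in untransformed cells. The transformed values lie below the mean of those arrays. The fitted TE change was 2.11 ± 0.27 (limma adjusted p = 0.0185), and 0.75 with arrays scaled to one common SD (adjusted p = 0.47). Map3k7cl had polysomal RNA of 3.95, 3.34 and 4.22 in transformed cells, against 4.39, 4.60 and 4.86 in untransformed cells, and a fitted TE change of 2.01 ± 0.23 (adjusted p = 0.0109). Its total RNA fell by 2.79, and its polysomal change of -0.78 was not called (adjusted p = 0.15).

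The same pattern held for Pappa, a protease that frees IGF from its binding proteins, with a fitted TE change of 1.79 ± 0.28, and for Gjb2, the gap junction protein connexin 26, with 1.84 ± 0.30. It also held for Lrrc17, a secreted leucine-rich repeat protein, with 1.42 ± 0.21, and Pdgfrb, the PDGF receptor beta of mesenchymal cells, with 1.22 ± 0.19. With arrays scaled to one common SD these changes were 1.01 for Pappa, 1.19 for Gjb2, 0.69 for Lrrc17 and 0.61 for Pdgfrb, and none was called. Their limma adjusted p-values were 0.0242 to 0.0335, and their total RNA fell by 2.61 for Pdgfrb and fell by 3.72 for Pappa, with Lrrc17 and Gjb2 between. The transformed polysomal values of these 4 genes were 3.05 to 3.99. These values lie under the polysomal minimum, and the part of a low polysomal level in the TE change was not tested.

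Samd12 and Nav3 were the mirror case, with TE lower and the untransformed polysomal mean under 4.0. Samd12 had polysomal RNA of 4.51, 4.58 and 4.66 in transformed cells, against 3.83, 4.10 and 3.26 in untransformed cells, total RNA that rose by 2.30 and TE that fell by 1.44 ± 0.23 (limma adjusted p = 0.0298). Nav3, a microtubule-associated protein, had polysomal RNA of 4.19, 4.29 and 4.13 in transformed cells, against 3.94, 3.78 and 3.81 in untransformed cells, and TE that fell by 1.26 ± 0.22 (adjusted p = 0.0472). In both, total RNA was higher after transformation, and the polysomal changes of 0.86 for Samd12 and 0.36 for Nav3 were not called. Over all genes with the transformed mean at or under 4.0 the median TE change was -0.07, and over those with the untransformed mean at or under it 0.26. Their median total RNA changes were -0.42 and 0.24. This split uses the polysomal level, a term of TE, and so fixes the sign of the polysomal change in advance. These medians therefore cannot show the part of a low polysomal level in the TE changes.

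**Figure D3:**
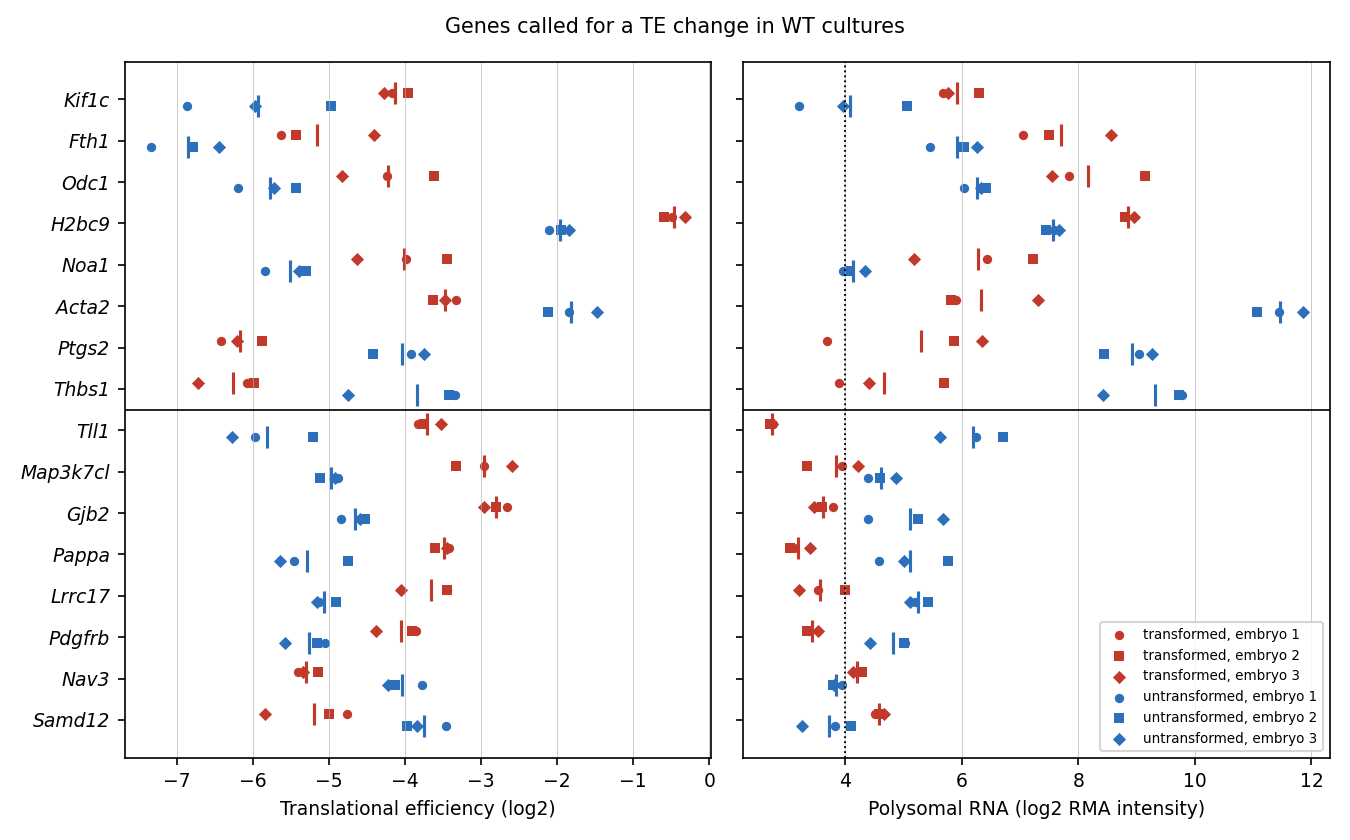
TE (left, log2) and polysomal RNA (right, log2 RMA intensity) of the 16 genes called for a TE change in WT cultures, by culture, with transformed values in red above untransformed values in blue. Symbols mark embryos 1 to 3, vertical ticks the mean of 3 cultures, and the dotted line the polysomal minimum of 4.0; below the horizontal line, 1 state of each gene has a mean at or under it.

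Among the regulators of initiation, 18 of 21 listed genes of eIF4F and its partners had a value of their own. Of these, 16 were above the minimum and 0 were called for TE in either direction. Their median TE change was 0.27, against 0.13 over all 7177 genes, and 0.68, 0.45 and -0.46 in embryos 1 to 3. Eif4e itself (chromosome 3) had polysomal RNA of 4.92, 5.47 and 4.68 in transformed cells, against 4.19, 3.91 and 4.09 in untransformed cells, and these did not overlap. Its TE change was 0.43 ± 0.24 (limma adjusted p = 0.64), while its total RNA rose by 0.53 (adjusted p = 0.0204). TE changes of the list ran from -0.12 for Eif4e3, a cap-binding paralog with a transformed polysomal mean at 4.0 or under, to 0.93 ± 0.48 for Paip2, an inhibitor of poly(A)-binding protein. The scatter of Paip2 came from the embryos, whose changes were 2.42, 1.05 and -0.70.

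The repressor Eif4ebp1, which holds eIF4E away from eIF4G, had a TE change of 0.11, and Eif4ebp2 one of 0.34. Pdcd4, which holds eIF4A, had a TE change of 0.09 although its total RNA rose by 0.91 (limma adjusted p = 0.0075). The cap-binding paralog Eif4e2 had a TE change of 0.41, the eIF4A partners Eif4h and Eif4b had 0.41 and 0.27, and the eIF4E transporter Eif4enif1 had 0.49. The eIF4G relatives Eif4g2 and Eif4g3 had 0.32 and -0.04, the helicase Eif4a2 had -0.10, the poly(A)-binding protein Pabpc1 had 0.27, its inhibitor Paip2b had -0.08 and the eIF4E kinase Mknk2 had 0.14. None of these passed the test, and the sign of 9 genes of this list depended on the fit.

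Of 32 other initiation factors, 28 had a value of their own, all 28 were above the minimum and 0 were called. Their median TE change was 0.25, with 0.89, 0.51 and -0.57 in embryos 1 to 3, and it was -0.06 without embryo 1 and 0.74 without embryo 3. Mcts1, which works in reinitiation and ribosome recycling, had TE of -3.00, -3.11 and -3.19 in transformed cells, against -5.16, -4.64 and -3.83 in untransformed cells. Those values did not overlap, and its TE change of 1.45 ± 0.27 did not pass the test (limma adjusted p = 0.0641). Eif6, which keeps the large ribosomal subunit from joining early, had a TE change of 0.54.

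Of the 79 listed cytosolic ribosomal protein genes, 22 had a value of their own, and all 22 passed the filter on low values. Above the minimum were 21, of which 0 were called for TE. Their median TE change was 0.34, with 0.71, 0.13 and 0.23 in embryos 1 to 3, and 10 were higher in all 3 embryos and 0 lower in all 3. Over the 7177 genes 1286 (17.9%) were higher and 442 (6.16%) lower in all 3 embryos. Rpl8, of the large subunit, had TE of -3.05, -3.24 and -3.18 in transformed cells, against -3.76, -3.75 and -4.10 in untransformed cells, and a TE change of 0.71 ± 0.19 (limma adjusted p = 0.20). Rpl14 had a TE change of 0.68, Rps14 of 0.65 and Rpl26 of 0.56. Ribosomal protein genes have many processed copies, and how far these share probe signal was not given in the sources used here.

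Other mRNAs known to start with a TOP, such as those of elongation factors, had a median TE change of 0.32 over 15 genes, with 0.82, 0.72 and -0.84 in embryos 1 to 3, and 0 were called. Eef1d, an exchange factor of elongation, had a TE change of 0.75 and Eef2, which moves the ribosome along the mRNA, one of 0.51. The starts of some transcripts of ribosomal protein genes and of these other TOP mRNAs show the element itself. They are given below as the first bases at the RefSeq start (GRCm38.p6), with the run of C and T at the very start in capitals.
Rpl14, chr9:120571517-120571536, plus strand: CTTCTCgctgagcgccgcca
Rps21, chr2:180257379-180257398, plus strand: CTCCTgcccaatagtgctgc
Fau, chr19:6057947-6057966, plus strand: CTTCCTCTTTCTTgactcca
Nap1l1, chr10:111473227-111473246, plus strand: CTTTTTTagcgccatctgct
Their TE changes were 0.68 ± 0.20 for Rpl14, 0.48 ± 0.46 for Rps21, 0.22 ± 0.24 for Fau and -0.29 ± 0.43 for Nap1l1, a histone chaperone, and none passed the test. The length of the run did not order them, since Fau has the longest. The genes shown were picked in part by a small p for TE. Rplp2 and Rps15a, which also have a start of this kind, had TE changes of 0.18 and -0.08.

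A pyrimidine start, taken as C followed by at least 4 more letters C or T at the annotated start on the transcript strand, was present in 181 of the 5797 genes with a RefSeq start (3.122%) and in 813 of all 27025 RefSeq genes (3.008%). Genes with it had a median TE change of 0.12 and genes without it 0.13. Among ribosomal protein genes it was present in 5 of 17, with median changes of 0.22 with it and 0.43 without it. Among other TOP mRNAs it was present in 2 of 9, with median changes of -0.095 with it and 0.27 without it. Annotated starts can be off by some bases, so these counts describe the annotation. The GC share of the first 50 bases of the transcript had a Spearman correlation of 0.03 with the TE change over 5797 genes, and of 0.06, -0.03 and 0.01 in embryos 1 to 3. From the lowest to the highest of 5 equal bins of GC share, the median TE changes were 0.09, 0.12, 0.14, 0.15 and 0.14.

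The replication-dependent histones had the largest median TE change of the lists over the 3 embryos together in the main fit. Without embryo 3 theirs was 0.50, below that of many lists. Among these were other TOP mRNAs (0.77), proteasome subunits (0.75), other initiation factors (0.74) and SR and hnRNP splicing factors (0.68). With array weights the histone median was 0.60, against 0.63 for other TOP mRNAs. Histones supply new nucleosomes in S phase. Of 58 listed genes, 24 had a value of their own and 20 were above the minimum. Of these 20, 1 (H2bc9) was called higher and 0 lower. All 20 had a TE change above 0, from 0.14 to 1.52, with a median of 0.78 against 0.13 over the 7177 genes, of which 4685 were above 0. Their medians in embryos 1 to 3 were 0.60, 0.46 and 1.15, and 16 of 20 were higher in all 3 embryos. Total RNA of the list had a median change of -0.02 and polysomal RNA one of 0.66, with 0 genes called in total RNA and 4 called higher in polysomal RNA.

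H4c6 (chromosome 13), a histone H4 gene, had polysomal RNA of 7.80, 7.72 and 7.49 in transformed cells, against 6.57, 6.47 and 6.40 in untransformed cells. H4c3 had 7.60, 7.74 and 7.09 in transformed cells, against 5.78, 5.88 and 6.14 in untransformed cells. In both genes the groups did not overlap, and polysomal RNA rose by 1.19 and 1.54 (limma adjusted p = 0.0162 and 0.0298). Their TE changes of 1.21 ± 0.22 and 1.32 ± 0.25 missed the threshold, with adjusted p-values of 0.0566 and 0.0591, and H4c8 had a TE change of 1.52 ± 0.30 (adjusted p = 0.0708). In S phase genes, which share the timing but have poly(A) tails, 34 genes had a median TE change of 0.17 and 0 were called. Pold2, a subunit of DNA polymerase delta, had a TE change of 1.19 ± 0.24 (adjusted p = 0.0831), and Gins3, of the replicative helicase, one of -0.63. In 41 G2 and mitosis genes the median was 0.17 with 0 called, and the checkpoint gene Bub3 had a TE change of 0.59.

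Nuclear-encoded genes of mitochondria had median TE changes above that of the 7177 genes, with no call. Oxidative phosphorylation subunits had a median TE change of 0.44 over 52 genes, 50 of them above 0, with 1.00, 0.07 and 0.32 in embryos 1 to 3; 0 were called, and 17 were higher and 0 lower at an unadjusted p under 0.05. Uqcrh, a subunit of complex III, had polysomal RNA of 10.91, 10.47 and 10.71 in transformed cells, against 9.25, 9.81 and 9.47 in untransformed cells, which did not overlap. Its TE change was 1.04 ± 0.24 (limma adjusted p = 0.14). Cox7b, of complex IV, had a TE change of 1.06, and Ndufv1 and Ndufa9, of complex I, had 0.79 and 0.71. Mitochondrial ribosomal proteins had a median of 0.30 over 73 genes, with 0.78, 0.19 and 0.01 in embryos 1 to 3, 0 called, 19 higher in all 3 embryos and 1 lower in all 3. Mrpl42 had a TE change of 1.04 and Mrpl37 one of 0.81.

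Proteasome subunits had a median TE change of 0.41 over 28 genes, with 0.95, 0.56 and -0.46 in embryos 1 to 3, and 0 were called. Psmb6, a catalytic beta subunit, had a TE change of 1.21 ± 0.33 and Psma7, an alpha ring subunit, one of 0.99 ± 0.32. Ribosome biogenesis genes, a class of Myc targets, had a median of 0.22 over 56 genes, with 0.75, 0.51 and -0.70 in embryos 1 to 3, and splicing factors of the SR and hnRNP families had 0.19 over 29 genes, with 0.64, 0.69 and -0.85. No gene of either list was called. The embryos of these lists differed by more than the lists did from the 7177 genes. Srsf3, a splicing factor that also exports mRNA, had TE of -3.75, -3.73 and -4.18 in transformed cells, against -6.29, -6.63 and -4.91 in untransformed cells, which did not overlap. Its TE change of 2.06 ± 0.43 did not pass (limma adjusted p = 0.0862). Srsf1 had a TE change of 1.19 and Hnrnpa0 one of -0.65.

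Of mRNAs reported elsewhere to depend on eIF4E dose, 27 of 31 were above the minimum. Fth1 and Odc1 were called higher and 0 lower, and the median TE change of the list was 0.26, against 0.13 over the 7177 genes. Birc5, which encodes the apoptosis inhibitor survivin, had a TE change of 0.63. Polyamine and ferritin-transferrin control genes had a median of 0.31 over 9 genes, the same Fth1 and Odc1 being their 2 calls, and Azin1, an antizyme inhibitor that spares ornithine decarboxylase, had a TE change of 1.04 ± 0.44. In redox and antioxidant genes 1 of 35 was called, again Fth1, with a median of 0.23 for the list. Gpx1, a selenium-dependent peroxidase, had TE of -4.10, -4.05 and -4.07 in transformed cells, against -6.01, -4.53 and -5.12 in untransformed cells, and its change of 1.15 ± 0.28 did not pass (limma adjusted p = 0.15).

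Stress mRNAs with upstream open reading frames and ATF4 targets had a median TE change of 0.16 over 21 genes. The 1 call in that list was again Odc1. Ddit4, an inhibitor of mTOR complex 1, had a TE change of 1.14 ± 0.27 (limma adjusted p = 0.14) and Ppp1r15b, which directs the phosphatase of eIF2 alpha, one of 1.00. RAS-ERK output genes had a median of 0.30 over 32 genes with 0 called. Etv4, an ETS factor of that pathway, had a TE change of 1.00 ± 0.28 on top of total RNA that rose by 0.63 (adjusted p = 0.0079). The Myc probe set had a TE change of 0.44, which was -0.22 with arrays scaled to one common SD, and total RNA that fell by 1.91 (adjusted p = 0.007), and the list of Myc and Ras genes with Myc partners had a median of 0.18 over 12 genes with 0 called. Whether this probe set reads the introduced gene was not given in the sources used here.

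Endoplasmic reticulum folding genes, which serve secreted proteins, had a median below that of the 7177 genes. They had a median TE change of -0.08 over 42 genes, with 0.00, -0.22 and -0.15 in embryos 1 to 3. At an unadjusted p under 0.05, 1 was higher and 10 were lower, 12 were lower in all 3 embryos, and 0 were called. Hspa5, the chaperone BiP, had polysomal RNA of 6.83, 6.86 and 6.34 in transformed cells, against 8.44, 7.79 and 7.55 in untransformed cells, and these did not overlap. Its TE change was -0.93 ± 0.25 (limma adjusted p = 0.21) and its total RNA fell by 0.31 (adjusted p = 0.0267). P4hb, which forms disulfides and serves proline hydroxylation, had a TE change of -0.78, and Pdia3 and Calr, of the glycoprotein folding cycle, had -0.93 and -0.77.

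Collagens and matrix genes showed TE on both sides, with a median of 0.00 over 57 genes, 1 called lower (Thbs1), 14 higher in all 3 embryos and 20 lower in all 3. In total RNA 39 of the 57 were called lower. Bgn, the proteoglycan biglycan, had polysomal RNA of 3.19, 6.28 and 5.79 in transformed cells, against 9.67, 9.50 and 8.15 in untransformed cells. Embryo 1 was lowest once transformed, and the groups did not overlap. Its TE change was -1.88 ± 0.38 (limma adjusted p = 0.0751). Ccn1, a matrix-associated signalling protein, had a TE change of -1.03 and Sparc, which binds collagen, one of -0.80.

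Contractile and actin cytoskeleton genes had a median TE change of -0.19 over 32 genes, which was 0.11 without embryo 3 and 0.10 with array weights, with -0.09, 0.30 and -0.86 in embryos 1 to 3 and 1 called lower (Acta2). In total RNA 28 of them were called lower and in polysomal RNA 12. Cnn1, the actin-binding calponin, had a TE change of -1.18 ± 0.23 (limma adjusted p = 0.0706) and the tropomyosin Tpm2 one of -0.72. Fhl1 had a TE change of 1.38 ± 0.33, with a transformed polysomal mean under 4.0. Fibroblast markers had the lower summed total RNA given above, and 5 of the 11 above the minimum were called lower in total RNA. The ranges of their summed polysomal RNA overlapped, at 10.54 to 11.74 in transformed cells against 11.54 to 12.16 in untransformed cells. Muscle markers had summed total RNA of 10.80 to 10.85 in transformed cells, against 11.49 to 11.88 in untransformed cells. Neural markers had summed total RNA of 10.80 to 11.30 in transformed cells, against 11.62 to 12.08 in untransformed cells. Their polysomal ranges overlapped, at 6.80 to 7.36 against 7.30 to 7.44. Epithelial markers had summed polysomal RNA of 7.03 to 8.03 in transformed cells, against 6.77 to 6.87 in untransformed cells. Their total RNA ranges overlapped, at 10.51 to 11.73 against 10.45 to 10.56. In total RNA, leukocyte markers overlapped (10.71 to 11.81 against 11.34 to 11.73) and endothelial markers did not (10.41 to 10.57 against 10.67 to 10.81). The part of these marker lists in the TE changes was not tested, and in these bulk cultures fewer cells of a kind and less RNA per cell cannot be told apart. The 11 fibroblast markers had a median TE change of 0.12, with Pdgfrb called higher, Thy1, a surface glycoprotein, at -0.72 and S100a4 at 0.81.

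Chemokines and secreted growth factors had a median TE change of -0.07 over 25 genes with 0 called. Fgf7, a growth factor for epithelium, had TE of -6.40, -6.16 and -6.59 in transformed cells, against -5.26, -5.30 and -4.63 in untransformed cells. These did not overlap, and its change of -1.32 ± 0.25 did not pass (limma adjusted p = 0.0685). In the remaining lists 0 genes were called for TE, and their median changes were 0.04 for 25 cholesterol and fatty acid synthesis genes, 0.12 for 23 p53 targets, 0.15 for 22 glycolysis and hypoxia genes, 0.15 for 6 aminoacyl-tRNA synthetases, 0.33 for 8 interferon response genes and 0.23 for 9 nuclear noncoding RNAs and snoRNA hosts. Gas5 and Snhg5, snoRNA host genes whose spliced RNA is short-lived while translated, had TE changes of 0.99 and 1.11.

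**Figure D4:**
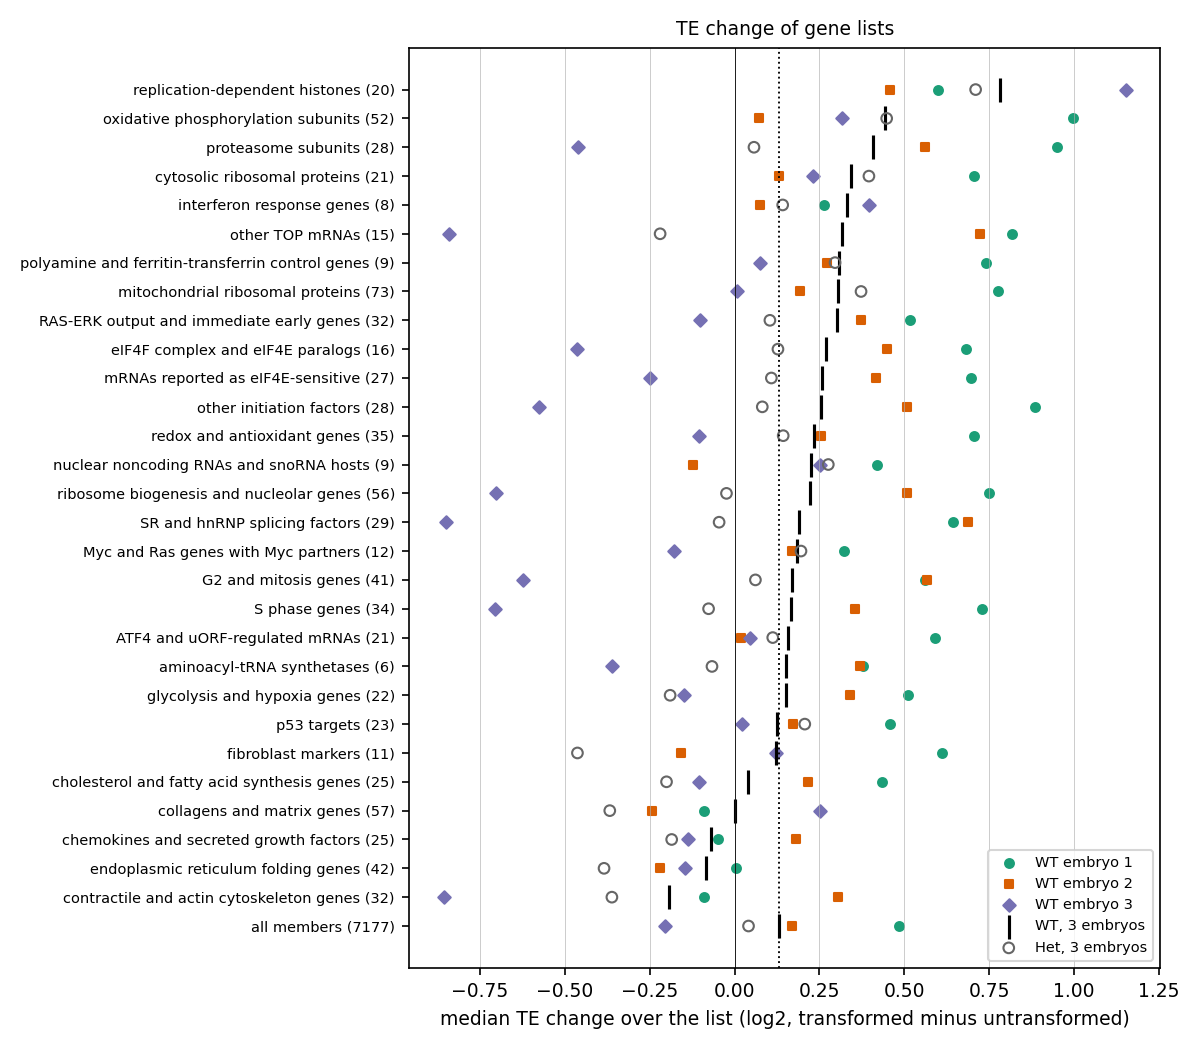
Median TE change (log2, transformed minus untransformed) of the gene lists with at least 5 members, the number of genes in brackets. Coloured symbols give WT embryos 1 to 3, black ticks the WT change over 3 embryos, open circles the Het change, and the dotted line the WT median of all 7177 genes, 0.13. Over the 3 embryos histones have 0.78 and contractile genes -0.19, and embryo 3 lies below the other embryos in most lists.

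The Het cultures share no array with the WT change, and the polysomal minimum did not use them. They did enter the fit that gave the 16 calls, through the shared estimate of each gene's spread, so the Het values of these genes are a description, not an independent check. All 16 genes called in WT had the same sign of TE change in Het, as did 4912 of the 7177 genes (68.4%). For all 16 the 3 Het embryos moved the way of the WT call. Over the 7177 genes, all 3 Het embryos were higher for 1720 (24%) and lower for 1327 (18.5%). The Het cultures on their own gave 3 calls higher (0.0418%) and 4 lower (0.0557%), and 5 of the 16 genes were among them. These 5 were Acta2, Thbs1, Ptgs2, Kif1c and Map3k7cl.

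In WT and Het, TE changes were -1.66 and -1.78 for Acta2, -2.43 and -2.45 for Thbs1, and -2.13 and -2.74 for Ptgs2. Kif1c had 1.80 and 1.98, Odc1 1.56 and 1.36, H2bc9 1.50 and 1.01, Noa1 1.50 and 0.92, and Fth1 1.70 and 0.83. Smaller Het values came with Pdgfrb, at 1.22 in WT and 0.28 in Het, and with Gjb2, at 1.84 and 0.65. The difference between the genotypes was called for 0 of the 7177 genes by limma, and at an unadjusted p under 0.05 for 89 genes with a higher (1.24%) and 50 with a lower change in WT (0.697%). That sum of 139 genes was 1398 without embryo 3 of WT, with 0 called there too. Across the 7177 genes the WT and Het changes correlated at r = 0.64 (Spearman 0.58), as a description over genes.

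Lists kept their place between the genotypes to different degrees. Histones had a median of 0.78 in WT and 0.71 in Het, where 16 of 20 were again higher in all 3 embryos. Oxidative phosphorylation subunits had 0.44 in WT and 0.45 in Het, mitochondrial ribosomal proteins 0.30 and 0.37, and cytosolic ribosomal proteins 0.34 and 0.40. Endoplasmic reticulum folding genes had -0.08 in WT and -0.38 in Het, where 22 of 42 were lower in all 3 embryos, and Hspa5 was called lower in Het by 1.63 (limma adjusted p = 0.0448). Proteasome subunits had 0.41 in WT and 0.06 in Het, and other TOP mRNAs 0.32 and -0.22. The median over all 7177 genes was 0.13 in WT and 0.04 in Het, with Het embryos at 0.05, -0.13 and 0.21. Differences of list medians between the genotypes were not tested.

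**Figure D5:**
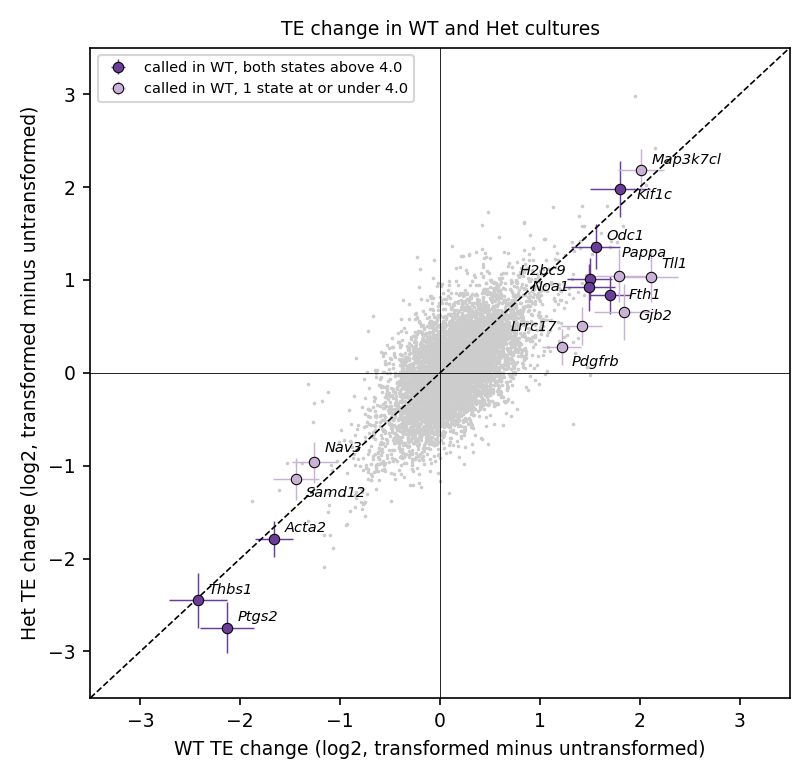
TE change (log2, transformed minus untransformed) in Het against WT cultures for the 7177 genes in grey, with the 16 genes called in WT marked and bars giving the standard error on each axis. All 16 lie in the quadrants of equal sign, with Acta2, Thbs1, Kif1c and Map3k7cl near the dashed line of equal change and Pdgfrb, Lrrc17 and Gjb2 nearer to 0 in Het.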

How the data were processed

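The deposited log2 values were RMA intensities made by the authors from Affymetrix Mouse Gene 1.0 ST arrays, per the submitters' processing notes; its version, the chip definition and any filter on probe sets are not given in the sources used here. Whether total and polysomal arrays were normalized apart is not given either; array means were close within each fraction and differed between them, so a TE value, and the median TE change, is relative to that scaling. Per the labels' protocols, the polysomal fraction was taken after cycloheximide at 100 µg/ml from a 10 to 50% sucrose gradient, and RNA was amplified with a NuGEN kit. Precision was limited by the number of arrays, 3 per group. Of 25668 probe sets, 20777 carried 1 gene symbol, 232 several and 4659 none in the platform annotation, and the last 2 classes were left out. Of 19661 genes, 564 had several probe sets, and the brightest was used. Genes entered the test where 3 or more arrays put them over the 40th percentile of that array.

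TE was computed per culture and tested on all 12 cultures with limma 3.58.1 under R 4.3.3 (lmFit, eBayes), blocking on embryo, which left 4 degrees of freedom, with Benjamini-Hochberg adjustment over 14830 genes. Total and polysomal values were tested alike. The pairing rests on the labels, which give both states the same embryo; deviations of the pairs from their group means correlated at -0.18, -0.03 and -0.42 in TE and at 0.12, -0.01 and -0.08 in total RNA. Replicates are separate embryos. The fit was tested on simulated data, drawn for each culture independently and without embryo effects. That test therefore does not cover the differences between embryos seen here.

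The members and the 34 gene lists were chosen with earlier results of these data known, so list counts are descriptions. Named genes are all called genes, the 4 genes of smallest p in each list, of which the text gives some, and all eIF4F genes. Genes shown at the minimum were taken by their level. Genes shown for a TOP start were taken by a pyrimidine start and a small p for TE. Where such a gene had several annotated starts, the start with the longest run was used. Alternatives were the fit without block, WT cultures alone, quantile normalization, arrays scaled to one SD, no filter, stricter minimums, probe set means, other eBayes settings, array weights and each embryo left out; 2 more, TE centred per culture and omission of 2 polysomal arrays of small spread, were chosen after seeing the data. Start sequences came from RefSeq (GRCm38.p6). Protein length, named in the plan, was not analysed here.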

Additional observations from a re-analysis of the deposited data

Results flagged for a closer look

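Mvd, an enzyme of cholesterol synthesis, had a TE change of 0.456 in WT and -0.337 in Het cultures, with all 3 WT embryos higher and all 3 Het embryos lower after transformation. It was singled out because the embryos of the 2 genotypes moved in opposite directions. Over the 7177 genes, 17.9% were higher in all 3 WT embryos and 18.5% lower in all 3 Het embryos. The share of genes that did both is not given here, so Mvd need not be unusual. The difference itself did not pass the test (limma interaction, adjusted p = 0.999868), and neither change was called within its genotype. Its polysomal RNA in WT was 4.76, 4.56 and 4.84 in transformed cells, against 4.67, 4.36 and 4.47 in untransformed cells, close to the minimum of 4.0. Other cholesterol genes had WT TE changes of -0.67 for Sc5d and 0.65 for Srebf2.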

How the results depend on the processing

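Counts of calls depended strongly on the fit. All 16 called genes kept their direction in each alternative run, but most of these runs could not have changed it. Fits that differ only in filter, block or eBayes settings keep the same estimate. Leaving out 1 embryo cannot turn a gene whose 3 embryos all moved the same way, which held for all 16. Without the replicate block, which drops the pairing, 35 genes were higher and 10 lower, with WT cultures alone 0 and 0, with quantile normalization 27 and 11, with arrays scaled to one common SD 7 and 5, and with TE centred on each culture's median 27 and 13. A polysomal minimum of 5.0 left 4 and 3, the minimum in both states 5 and 3, trend and robust eBayes gave 21 and 6, and array weights 187 and 34. Leaving out 1 embryo gave 1 to 536 higher and 1 to 32 lower, and without the 2 polysomal arrays of smallest spread 16 and 5. In polysomal RNA, 143 genes were higher without the replicate block and 96 with quantile normalization, and leaving out 1 embryo gave 2 to 1171 higher and 17 to 336 lower. In total RNA it gave 221 to 546 higher and 273 to 766 lower.

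The 16 genes all remained called without the replicate block, with quantile normalization, array weights and centring, and without embryo 3. Without embryo 1 only Acta2 and Map3k7cl remained, without embryo 2 Ptgs2 and Tll1, and without the 2 arrays of smallest spread 12, Fth1 (adjusted p = 0.0579), Gjb2 (0.0527), Samd12 (0.0844) and Nav3 (0.211) being lost. With probe set means Kif1c was lost, and with trend and robust eBayes Nav3 and Pdgfrb. The median TE change of all genes was 0.04 with quantile normalization. Of uncalled genes, some changed sign. With an embryo left out, TE changes ran from -0.37 to 0.33 for Eif4a2, -0.18 to 1.04 for Eif4b, -0.072 to 0.84 for Eif4e2, -0.20 to 0.046 for Eif4e3, -0.21 to 0.48 for Eif4ebp1, -0.25 to 0.32 for Eif4g3, -0.31 to 0.31 for Paip2b and -0.29 to 0.77 for Pdcd4. Array weights gave 0.16 for Eif4a2, -0.29 for Eif4ebp1, 0.25 for Eif4g3, -0.068 for Mknk2 and 0.24 for Paip2b. A common SD gave -0.061 for Igf2 and -0.22 for Myc, against 0.77 and 0.44 in the main fit. Centring gave -0.032 for Eif4ebp1, -0.0034 for Mknk2 and -0.055 for Pdcd4, and without the 2 arrays of smallest spread Eif4ebp1 was -0.045, Eif4g3 0.016 and Mknk2 -0.044. The causes were not tested. Relative to the median of all genes, histones, oxidative phosphorylation, both sets of ribosomal proteins and proteasome genes stayed above, and endoplasmic reticulum folding and contractile genes below, in each fit. Each fit pooled more than 1 embryo, and several keep the same estimate. In embryo 2 (median of all genes 0.17), oxidative phosphorylation (0.07) and cytosolic ribosomal proteins (0.13) were below, and contractile genes (0.30) above. In embryo 3 (median -0.20), proteasome genes (-0.46) were below and endoplasmic reticulum folding genes (-0.15) above. Histones and mitochondrial ribosomal proteins were above in each embryo. Of 28 lists other than markers, 15 changed side in at least 1 fit. Matrix genes were 0.10 above without embryo 1. Without embryo 2, splicing factors were 0.13 below, ribosome biogenesis 0.12, S phase 0.17 and other TOP mRNAs 0.07 below, and without embryo 1 other initiation factors were 0.02 below. The others were aminoacyl-tRNA synthetase, ATF4, cholesterol, G2, glycolysis, interferon, Myc, noncoding RNA and p53 lists.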
